A study of Mus musculus with 6 samples.

Results

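The common gamma chain, 5 receptor chains that bind its cytokines, and the 4 JAK kinases were followed in CD4 T cells of mice with and without a deletion of Prmt5, the gene of a protein arginine methyltransferase. The 10 genes were taken as the rows whose Ensembl identifier maps to Il2rg, Il2ra, Il2rb, Il4ra, Il7r, Il21r, Jak1, Jak2, Jak3 and Tyk2, and all 10 were found once among 54532 gene rows. All 10 also lay far above the filter on low values that left 14944 genes for testing. In the 6 libraries the 10 genes together took between 0.240% and 0.334% of the summed values.

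RNA sequencing was compared between 3 KO libraries (replicates 1, 4 and 5), whose genotype label is iCD4-PRMT5 delta/delta, and 3 WT libraries (replicates 1, 2 and 4), whose label is iCD4-PRMT5fl/fl, a floxed and undeleted allele. The labels do not spell out iCD4, so the promoter behind the deletion is not stated in them, and the WT mice carry floxed alleles. Each of the 6 samples is total RNA of CD4 T-cells taken from C57BL/6 mice, from both the spleen and the lymph nodes, sequenced from a stranded library after removal of ribosomal RNA. Their treatment label gives anti-CD3/CD28 stimulation for 48 h, while their titles contain the word rest, so that the activation state is uncertain and is shared by both groups. A code in the descriptions divides the libraries into series 24 (KO 4, KO 5 and WT 4) and series 22 (KO 1, WT 1 and WT 2). By the design text, the 3 samples within each group are biological replicates.

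The receptors for IL-2, IL-4, IL-7, IL-9, IL-15 and IL-21 share 1 signalling subunit, the common gamma chain, and each adds chains of its own that bind the cytokine. JAK3 is held by the common gamma chain and JAK1 by the partner chains, and on binding of the cytokine the paired kinases phosphorylate each other, the receptor tails and the STAT transcription factors. In T cells the pathway is known for keeping naive cells alive through IL-7 and for driving growth of activated cells through IL-2. PRMT5 has been linked in mouse T cells to the splicing of the Il2rg and Jak3 transcripts, and the values used here are per gene, so that retained introns or skipped exons are not seen in them.

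The targeted gene was checked first. Prmt5 measured 24.4, 23.8 and 21.5 in KO 1, KO 4 and KO 5, against 34.9, 41.0 and 43.9 in WT 1, WT 2 and WT 4, in robust FPM (fragments assigned to a gene, scaled by the authors to robust size factors). Each KO value lay below each WT value, and the log2 difference KO minus WT was -0.78 (SE 0.137), which did not pass over all genes (limma adjusted p = 1).

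The libraries differed in ways other than genotype. WT 1 stood apart, where genes of olfactory and vomeronasal receptors, which T cells do not use, reached 0.295 FPM per kb, against 0.0141 to 0.0813 in the other 5 libraries, and the single row Gm26870 took 8.84% of its gene sum. The defining T cell genes were present in every library, with Cd4 at 391.7 to 465 in KO and 388.8 to 458.8 in WT and the whole T cell list at 3249 to 3759 in KO and 2983 to 3774 in WT. Summed over 12 listed markers of myeloid cells, the level was 590.2 to 1438 in KO and 239.1 to 915.1 in WT, lowest in WT 1 and highest in KO 5, with no marker at 0. The B cell list summed to 78.5 to 107.3 in KO and 59.2 to 104.1 in WT, and the list of CD8 T and NK cells to 136.9 to 175.1 in KO and 125.4 to 162.3 in WT. The erythroid and platelet list summed to 5.6 to 9.2 in KO and 4 to 9.5 in WT. Regulatory T cell genes, among them Foxp3, summed to 502.1 to 679.9 in KO and 539.1 to 703.5 in WT. The list of activated or cycling cells summed to 578.9 to 942.7 in KO and 739.9 to 924.3 in WT. In whole samples of this kind, fewer cells of a type and less RNA per cell cannot be told apart.

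Per kb of exon, the 10 genes fell into 3 ranges of level. Jak1, the kinase that partner chains of all these receptors bind, and Il7r, the IL-7 receptor chain, were highest, with means over the 6 libraries of 137.9 ± 10.7 and 122.8 ± 14.4 FPM per kb (SD, n = 6). Their ranges overlapped, at 120.6 to 149.3 for Jak1 and 101.5 to 138.2 for Il7r. Both lay above every other member in each library, and both exceeded 98.3% of the genes tested.

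The middle range held Il2rb at 55.0 ± 11.0, Jak2 at 46.2 ± 3.13, Il4ra at 45.5 ± 6.68, Il21r at 40.8 ± 2.96 and Il2rg at 38.9 ± 3.72 FPM per kb (SD, n = 6). Each of these overlapped its neighbour in the order. On this length the lowest value of Jak2, 43.3, lay just above the highest of Il21r, 43.2, and of Il2rg, 42.2. When levels were taken per kb of the longest transcript instead, the order inside this group changed. Il2rg moved from 7th to 4th place at 55.6 FPM per kb. Jak2 moved from 4th to 7th at 46.2, below Il21r at 54.2, so the order of these genes depends on the length used. The lowest range held Tyk2 at 14.0 ± 2.36, Jak3 at 9.99 ± 2.43 and Il2ra at 9.66 ± 1.37 FPM per kb (SD, n = 6), each again overlapping its neighbour, and none reached the lowest value of Il2rg, 32.5. Per kb, Jak1 was thus 10.6 to 16.0 times the level of Jak3 in KO libraries and 11.7 to 18.3 times in WT libraries.

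**Figure D1:**
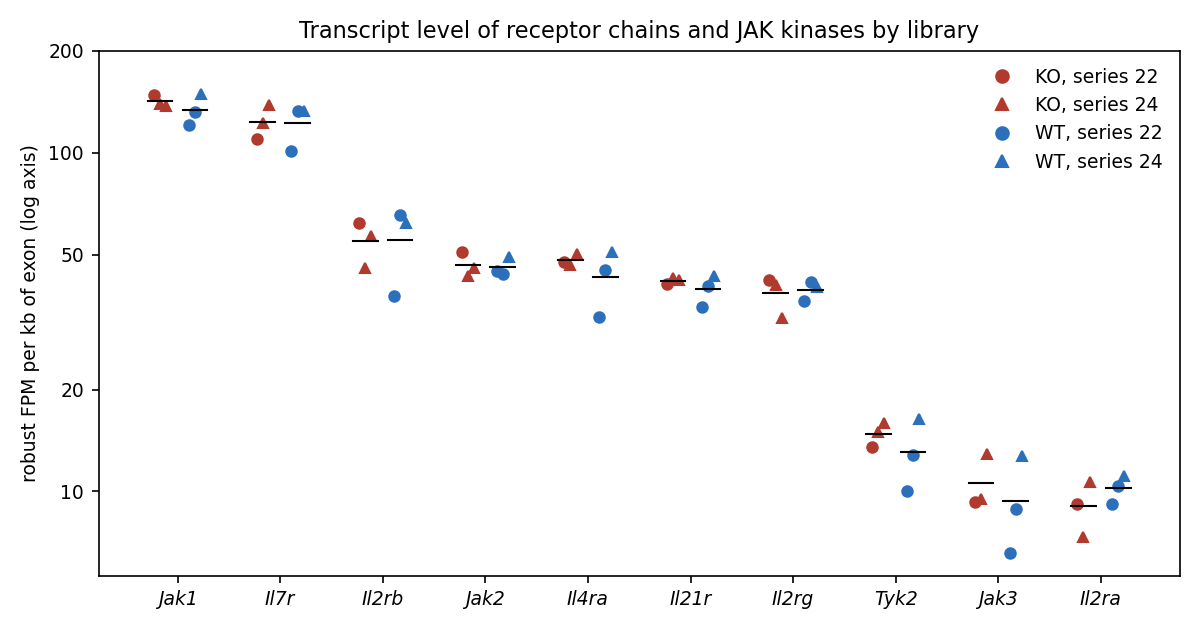
Level of each gene in robust FPM per kb of exon on a log axis, ordered by the mean over all libraries. KO libraries (red) stand left of WT libraries (blue), circles are series 22, triangles are series 24 and bars are group means (n = 3 each). Jak1 and Il7r form the upper range, Tyk2, Jak3 and Il2ra the lower one, and KO and WT points overlap for every gene.

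Promoter sequences are shown for the shared chain and for the highest receptor chain, because one gene is common to all these receptors and the other holds the only match to the letters searched for. RefSeq (GRCm38.p6) listed a window of 300 bases, 250 before and 50 after the start, for 9 of the 10 genes. Each window was searched on both strands for TTCNNNGAA and for TTC and GAA set 4 bases apart, the letters that STAT factors are known to bind, and for CCGGAAGT, a motif of the ETS family. The first occurs in 8.30% of 32851 such windows, the second in 6.95% and the third in 3.89%. Among the 9 genes, 1 window held a match, that of Il7r, where the first motif (in capitals) begins 142 bases before the RefSeq start. That window, 9529827 to 9530126, lies inside the GENCODE span of Il7r, 9505788 to 9530176 on the minus strand. The motif is thus not upstream of the start in that annotation. A match is a description of the letters, and binding was not measured.
Il2rg, chrX:101268206-101268505, minus strand: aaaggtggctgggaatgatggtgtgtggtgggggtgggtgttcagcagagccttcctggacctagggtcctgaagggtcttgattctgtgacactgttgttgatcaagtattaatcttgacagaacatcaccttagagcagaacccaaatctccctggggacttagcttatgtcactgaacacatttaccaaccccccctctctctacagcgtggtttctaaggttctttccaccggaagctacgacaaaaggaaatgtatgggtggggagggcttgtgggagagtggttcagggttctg
Il7r, chr15:9529827-9530126, minus strand: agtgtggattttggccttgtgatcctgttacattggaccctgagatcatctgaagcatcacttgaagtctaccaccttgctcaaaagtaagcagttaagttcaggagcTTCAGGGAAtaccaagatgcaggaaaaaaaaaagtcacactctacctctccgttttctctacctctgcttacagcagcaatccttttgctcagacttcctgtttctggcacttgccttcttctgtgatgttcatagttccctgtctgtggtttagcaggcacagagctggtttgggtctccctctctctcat

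Between KO and WT, 0 of the 10 genes passed the test in either direction. Over all 14944 genes limma also called 0 in each direction (0% and 0%), and 37 genes had an unadjusted p under 0.05, or 0.248%, none of them among the 10. The KO and WT values overlapped for all 10 genes, where 2.88% of all genes tested had groups that did not overlap (1.09% with KO higher and 1.79% with KO lower). The log2 differences (KO minus WT, adjusted for series) ran from -0.20 for Il2ra to 0.12 for Il4ra, with a median of 0.032, against a median of 0.014 over all genes tested. They were positive for 7 of the 10 genes and for 54.4% of all genes.

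The common gamma chain gene Il2rg (ENSMUSG00000031304.18, GRCm38 chromosome X, 101264378 to 101268255, minus strand) encodes the signalling subunit of the family. It measured 100.7, 97.0 and 77.5 FPM in KO 1, KO 4 and KO 5, against 87.2, 99.1 and 95.7 FPM in WT 1, WT 2 and WT 4. KO values lay on both sides of the WT values, with the lowest library being KO 5 and the highest KO 1. Its log2 difference was -0.013 (SE 0.138, 95% interval -0.33 to 0.31, limma adjusted p = 1), at 0.11 within series 22 and -0.14 within series 24. Of the 2387 exonic bases of Il2rg, 728 are shared with Gm20489 on the same strand, and that gene was listed at 0 to 0.1, so that how reads in the shared part were assigned is uncertain.

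Il2ra (ENSMUSG00000026770.5, chromosome 2, 11642807 to 11693193, plus strand) encodes CD25, the chain that gives the IL-2 receptor its high affinity and that regulatory and activated T cells carry. It measured 52.6, 42.0 and 61.1 FPM in KO 1, KO 4 and KO 5, against 52.6, 59.2 and 63.5 FPM in WT 1, WT 2 and WT 4. The lowest value was in KO 4, and KO 1 and WT 1 were equal. The difference, -0.20 (SE 0.167, 95% interval -0.59 to 0.18), was the furthest from 0 among the 10 genes and did not pass (limma adjusted p = 1). It was negative in both series, at -0.085 and -0.32 in series 22 and series 24. KO 4 was also lowest for the summed regulatory T cell markers (502.1) and for the list of activated or cycling cells (578.9). Of the 10 regulatory markers, Ctla4, Ikzf2, Lrrc32 and Nrp1 were lowest in KO 4. A further 5 were lowest in WT 1, among them Foxp3 (26.5, against 27.4 in KO 4). All activated or cycling genes but Tnfrsf9 and Nfkbid were lowest in KO 4. The part of these cells in the difference of Il2ra was not tested. The log2 difference was -0.072 without KO 4, -0.085 without WT 4 and -0.18 without WT 2. It was -0.26 without WT 1, -0.30 without KO 5 and -0.32 without KO 1. Leaving out WT 4 or KO 1 leaves the comparison to series 22 or to series 24. Those values therefore repeat the differences within the series and are no further check.

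Il2rb (ENSMUSG00000068227.9, chromosome 15, 78479256 to 78495271, minus strand) encodes the signalling chain shared by the receptors for IL-2 and IL-15. Its values of 266.1, 195.3 and 243.3 FPM in KO 1, KO 4 and KO 5 lay within the WT values of 162.0, 281.0 and 266.1 FPM in WT 1, WT 2 and WT 4. It had the widest interval of the 10 genes, -0.54 to 0.57 around a log2 difference of 0.015 (SE 0.238, limma adjusted p = 1). Within series 22 the difference was 0.32 and within series 24 it was -0.29. The lowest library was WT 1, and without it the log2 difference was -0.20. NK cells also carry this chain, and the summed list of CD8 T and NK cells was 175.1, 136.9 and 168.3 in KO 1, KO 4 and KO 5, against 125.4, 162.3 and 156.1 in WT 1, WT 2 and WT 4. Like Il2rb this sum was lowest in WT 1, as were the T cell and myeloid sums, and 4 of its 10 genes were lowest there. The part of CD8 T and NK cells in the values of Il2rb was not tested.

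Il4ra (ENSMUSG00000030748.9, chromosome 7, 125552120 to 125579474, plus strand) encodes the IL-4 receptor chain, which T cells, B cells and myeloid cells all use. It measured 285.1, 279.6 and 301.1 FPM in KO 1, KO 4 and KO 5, against 195.9, 270.1 and 306.1 FPM in WT 1, WT 2 and WT 4. WT 4 was the highest library and WT 1 the lowest, so that the 3 KO values fell inside the WT range. The log2 difference was 0.12 (SE 0.159, 95% interval -0.25 to 0.48, limma adjusted p = 1), the highest of the 10 genes, and it was -0.011 without WT 1. It was 0.31 within series 22 and -0.077 within series 24. On the opposite strand, Gm44876 shares 571 exonic bases with Il4ra and was listed at 0 to 0.4.

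Il7r (ENSMUSG00000003882.5, chromosome 15, 9505788 to 9530176, minus strand) encodes the IL-7 receptor chain, which is known to be high on naive and memory T cells. It measured 512.8, 569.5 and 644.4 FPM in KO 1, KO 4 and KO 5, against 473.2, 618.2 and 617.2 FPM in WT 1, WT 2 and WT 4. The extremes were WT 1 and KO 5, and the groups overlapped over most of their range. The log2 difference was -0.052 (SE 0.136, 95% interval -0.37 to 0.26, limma adjusted p = 1), and it was close in the 2 series, at -0.077 in series 22 and -0.027 in series 24.

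Il21r (ENSMUSG00000030745.9, chromosome 7, 125603429 to 125633570, plus strand) encodes the IL-21 receptor chain and lies next to Il4ra on the same strand. It had the smallest SE of the 10 genes, with values of 135.9, 142.3 and 140.1 FPM in KO 1, KO 4 and KO 5, against 116.8, 134.7 and 143.6 FPM in WT 1, WT 2 and WT 4. The highest and the lowest library were both WT. The log2 difference was 0.045 (SE 0.113, 95% interval -0.22 to 0.31, limma adjusted p = 1).

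Of the 4 kinases, Jak1 (ENSMUSG00000028530.14, chromosome 4, 101152367 to 101265282, minus strand), which also serves interferon receptors, had the highest values. It measured 1072.7, 1008.3 and 991.7 FPM in KO 1, KO 4 and KO 5, against 871.9, 954.6 and 1079.1 FPM in WT 1, WT 2 and WT 4. All 3 KO values lay between WT 2 and WT 4. The log2 difference was 0.062 (SE 0.120, 95% interval -0.22 to 0.34, limma adjusted p = 1). Series 22 alone gave 0.23, and series 24 alone gave -0.11.

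Jak3 (ENSMUSG00000031805.17, chromosome 8, 71676296 to 71690575, plus strand) encodes the kinase that binds the common gamma chain and is largely confined to blood cells. It measured 49.7, 50.9 and 69.2 FPM in KO 1, KO 4 and KO 5, against 35.3, 47.6 and 68.1 FPM in WT 1, WT 2 and WT 4. Each group held 1 library well above its other 2, and both high libraries, KO 5 and WT 4, were of series 24. Its log2 difference was 0.039 (SE 0.190, 95% interval -0.40 to 0.48, limma adjusted p = 1), at 0.27 within series 22 and -0.20 within series 24, and -0.086 without WT 1. Jak3 shares 404 exonic bases with Insl3 on the same strand, a gene listed at 0.5 to 1.1, so that the assignment of reads in that part is uncertain.

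Jak2 (ENSMUSG00000024789.12, chromosome 19, 29251828 to 29313080, plus strand), the kinase of the growth hormone, erythropoietin and interferon gamma receptors, varied least over the libraries, with a highest value 1.17 times the lowest. It measured 255.7, 217.7 and 229.2 FPM in KO 1, KO 4 and KO 5, against 224.7, 219.9 and 248.3 FPM in WT 1, WT 2 and WT 4. The highest and the lowest value were both in KO. Its log2 difference was 0.025 (SE 0.119, 95% interval -0.25 to 0.30, limma adjusted p = 1).

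Tyk2 (ENSMUSG00000032175.11, chromosome 9, 21104068 to 21131243, minus strand) encodes the kinase of type I interferon, IL-12 and IL-23 receptors. Its values were 92.8, 102.9 and 109.7 FPM in KO 1, KO 4 and KO 5, against 69.1, 88.0 and 112.6 FPM in WT 1, WT 2 and WT 4. The KO values lay inside the WT range. The difference on the log2 scale was 0.083 (SE 0.142, 95% interval -0.25 to 0.41, limma adjusted p = 1), and it was -0.015 without WT 1. With 1700084C06Rik on the opposite strand, Tyk2 shares 554 exonic bases, and that gene was listed at 0 to 0.4.

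**Figure D2:**
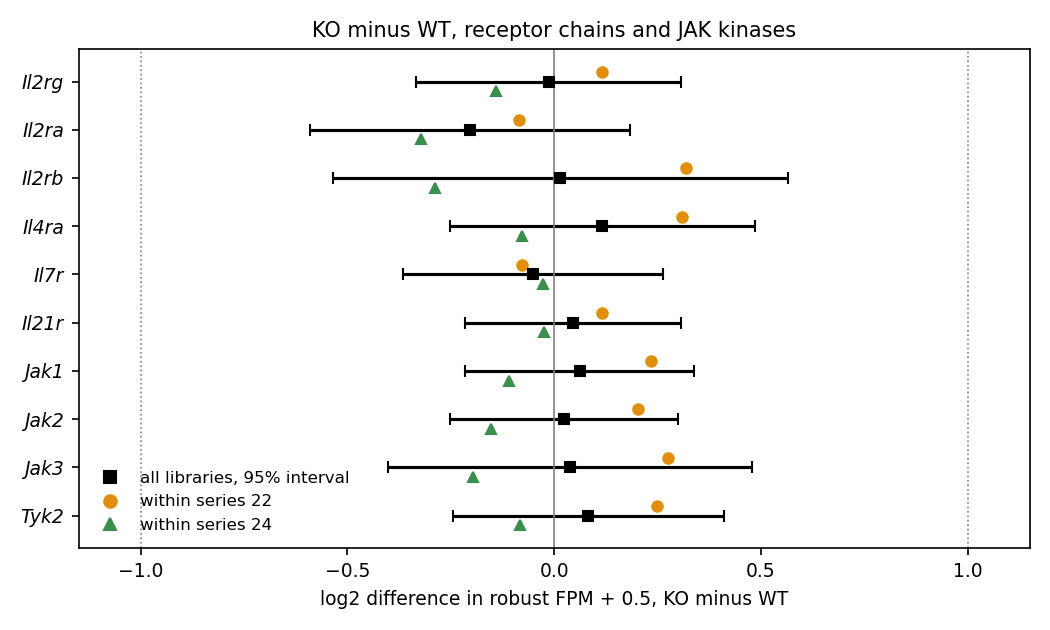
Difference between KO and WT for each gene on the log2 scale (robust FPM + 0.5). Squares with bars are the limma estimate over all 6 libraries with its 95% interval, circles and triangles the plain differences within series 22 and series 24, and dotted lines a 2-fold difference. All 10 intervals include 0 and lie inside the dotted lines.

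The intervals bound the differences that these libraries allow. For 10 of the 10 genes the 95% interval lay within a 2-fold difference in either direction, as it did for 85.1% of all genes tested, and for 9 of the 10 it lay within 1.5-fold, against 60.1% of all genes. The exception was Il2ra, whose lower bound of -0.59 passed that limit. These intervals hold for the deposited scaling. With scaling to the ERCC spike-in rows the intervals of 0 of the 10 genes lay within 2-fold, the median of all genes moved to -0.20, and all 10 differences were negative, from -0.42 for Il2ra to -0.10 for Il4ra, without a call. Without KO 1 or without WT 4, which leaves the comparison to 1 series, the number within 1.5-fold was 5. With the replicate number as a block, on the deposited scaling, it was 1, and only KO 1, WT 1, KO 4 and WT 4 inform that fit's difference.

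KO lay above WT within series 22 and below WT within series 24 for 8 of the 10 genes, all but Il2ra and Il7r. The same pattern of signs was found in 54.3% of all genes tested. The median of the 10 genes was 0.22 in series 22 and -0.13 in series 24, where all genes had medians of 0.12 and -0.078. A test of the difference between the series (limma, genotype by series) called 0 of the 10 genes and 0 of 14944 (0%), with 369 genes (2.47%) and 0 of the 10 at an unadjusted p under 0.05. Series 22 contains WT 1, and 7 of the 10 genes, namely Il2rb, Il4ra, Il7r, Il21r, Jak1, Jak3 and Tyk2, had their lowest value there, as did 44.3% of all genes tested. Without WT 4, the KO values of 5 genes lay above the WT values (Jak1, Il4ra, Il21r, Jak3 and Tyk2), as in 24.5% of the genes then tested. That leaves only WT libraries of series 22, while KO 4 and KO 5 are of series 24. The count has no series term, so genotype and series cannot be told apart in it.

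**Figure D3:**
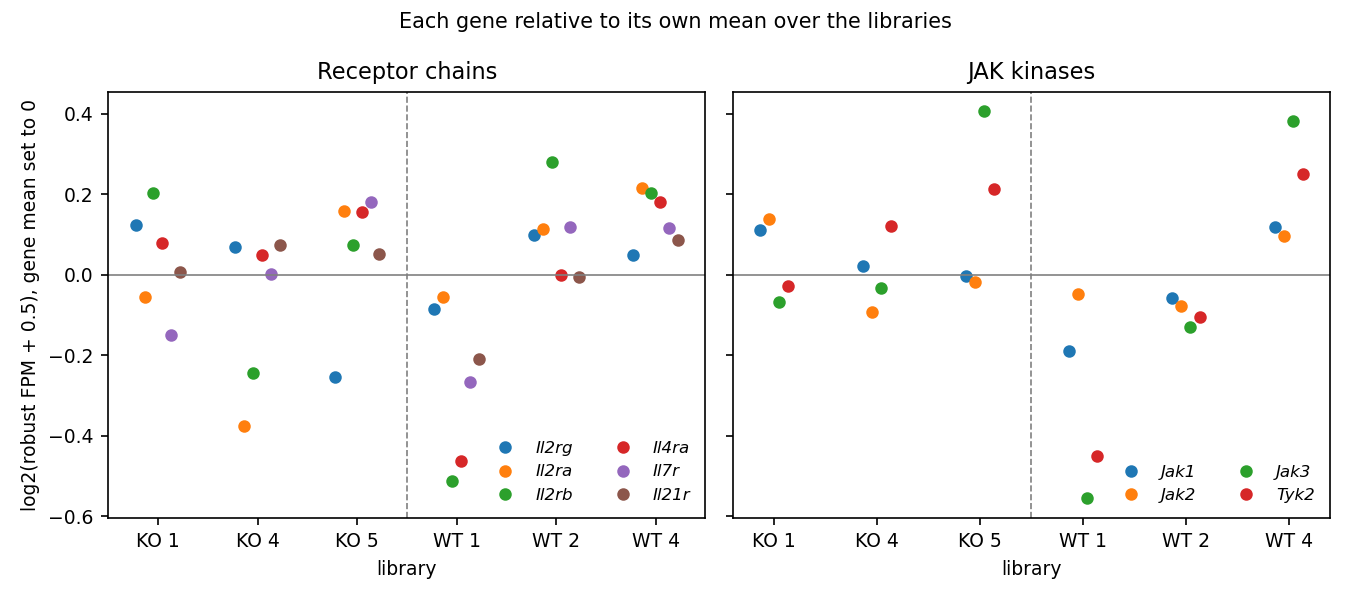
Level of each gene in each library relative to that gene's own mean over the 6 libraries, on the log2(robust FPM + 0.5) scale, with receptor chains on the left and kinases on the right. KO libraries stand left of the dashed line and WT libraries right of it. In WT 1 the points of Il2rb, Il4ra, Jak3 and Tyk2 lie lowest, and Jak3 and Tyk2 are highest in KO 5 and WT 4.

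The genes were also set by library series, 24 against 22, with genotype as a term. Of the 10 genes 0 were called, where limma called 1 gene of 14944 as higher (0.00669%) and 20 as lower (0.134%) in series 24. Jak3 and Tyk2 stood furthest from 0. Jak3 measured 50.9, 69.2 and 68.1 FPM in KO 4, KO 5 and WT 4 of series 24, against 49.7, 35.3 and 47.6 FPM in KO 1, WT 1 and WT 2 of series 22, a log2 difference of 0.49 (SE 0.190, 95% interval 0.049 to 0.93, limma adjusted p = 0.516). Tyk2 measured 102.9, 109.7 and 112.6 FPM in series 24, against 92.8, 69.1 and 88.0 FPM in series 22, a log2 difference of 0.36 (SE 0.142, limma adjusted p = 0.523). Both were higher in each library of series 24 than in any of series 22, as was Il21r with a log2 difference of 0.12. Such a separation was found in 3 of the 10 genes and in 14.3% of all genes tested, and the reverse in 0 of the 10 and in 6.14% of all genes. At an unadjusted p under 0.05 there were 2 of the 10 genes, Jak3 and Tyk2, and 8.81% of all genes.

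The sums of 2 marker lists also differed between the series. The 12 myeloid markers summed to 660.6, 1438 and 915.1 in KO 4, KO 5 and WT 4 of series 24, against 590.2, 239.1 and 365.0 in KO 1, WT 1 and WT 2 of series 22. Of these markers C1qc, Tyrobp, Lyz2, Adgre1 and Mpeg1 were higher in each library of series 24 than in any of series 22. The other myeloid markers overlapped, such as Csf1r with 115.6 in KO 4 and 119.2 in KO 1. The sum of the 12 genes of activated or cycling cells was 578.9, 764.9 and 739.9 in series 24, against 942.7, 805.2 and 924.3 in series 22. In the same order, its member Cd69 measured 193.2, 214.7 and 216.0 against 369.4, 303.2 and 365.7. Cd69 was the only one of the 12 genes whose values were apart between the series. Among the others, Cd44 (76.8, 124.3 and 107.2 against 101.6, 81.3 and 97.4) and Myc (22.7, 29.0 and 27.6 against 27.3, 25.0 and 25.8) overlapped. The part of the cells of both lists in the values of Jak3 and Tyk2 was not tested. Without WT 1 the log2 differences between the series were 0.36 for Jak3 and 0.26 for Tyk2, and without WT 4 they were 0.25 and 0.19. They were 0.73 and 0.53 without KO 1, and 0.62 and 0.40 without KO 4. The remaining members ran from -0.087 for Il2rg to 0.22 for Il4ra, and Il7r was at 0.22. The difference was positive for 8 of the 10 genes and for 61.7% of all genes tested.

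**Figure D4:**
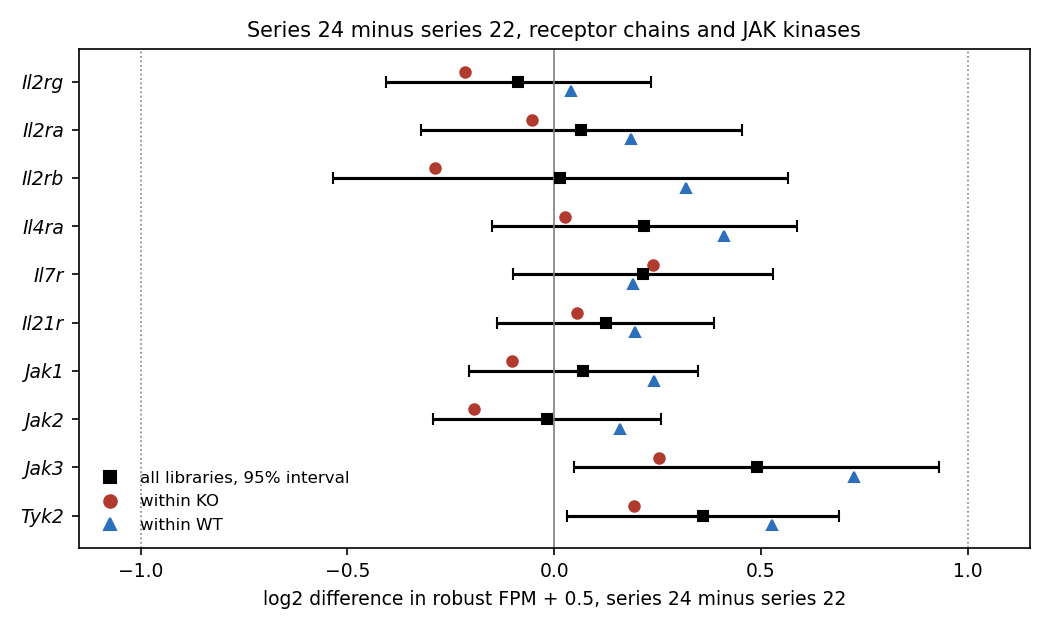
Difference between series 24 and series 22 for each gene on the log2 scale (robust FPM + 0.5). Squares with bars are the limma estimate with its 95% interval, circles and triangles the plain differences within KO and within WT, and dotted lines a 2-fold difference. The intervals of Jak3 and Tyk2 lie to the right of 0, and neither gene passed over all genes.

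Further genes of the pathway were taken from 6 lists of 88 symbols, of which 82 could be tested, and 0 of them were called in either direction between KO and WT (0% of all genes were called in each direction). Among ligands, 3 of 8 were tested, with a median log2 difference of 0.044. Il4, which encodes IL-4, had the smallest p and averaged 2.53 ± 0.907 in KO and 2.17 ± 0.569 in WT (SD, n = 3 each), a log2 difference of 0.19 that was -0.39 without KO 1. Il2, the gene of the cytokine that activated T cells release, fell under the filter, at 1.1, 0.7 and 1.0 FPM in KO 1, KO 4 and KO 5, against 1.0, 1.0 and 0.9 FPM in WT 1, WT 2 and WT 4. Of 18 other receptor chains, all tested, 0 were called, and the median was 0.086. Il13ra1, a chain of the IL-13 receptor that myeloid cells carry, had the smallest p, at 8.37 ± 5.23 in KO and 4.37 ± 2.71 in WT (SD, n = 3 each), a log2 difference of 0.55 (limma adjusted p = 1). That difference was 0.22 without KO 1, 0.29 without KO 5, 0.89 without KO 4, 0.87 without WT 4 and 0.057 with the replicate number as a block. Its highest value, 14.4, was in KO 5, the library with the highest myeloid sum, and its lowest, 2.2, in WT 2.

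The 7 STAT genes had a median log2 difference of 0.12, and 0 were called. Stat6, the factor downstream of the IL-4 receptor, measured 181.2, 226.3 and 179.2 FPM in KO 1, KO 4 and KO 5, against 131.7, 156.2 and 189.6 FPM in WT 1, WT 2 and WT 4, which overlap, and its log2 difference was 0.21 (SE 0.142, limma adjusted p = 1). It was 0.087 without KO 1, 0.34 without WT 4 and -0.0079 with ERCC scaling. For 22 inhibitors, among them the SOCS family, the median was -0.0049 and 0 were called. Dusp5, a phosphatase that acts on ERK kinases, averaged 25.3 ± 15.5 in KO and 25.2 ± 7.51 in WT (SD, n = 3 each). Its log2 difference was 0.22 with the series term, -0.12 without that term and -0.14 without KO 1.

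Of 15 adaptors and genes of the PI3K arm, 14 were tested, 0 were called and the median was 0.061. Syk, a kinase of B cells and myeloid cells, averaged 24.3 ± 13.9 in KO and 14.7 ± 6.04 in WT (SD, n = 3 each), with its highest value, 40.3, in KO 5. Its log2 difference of 0.39 was 0.13 without KO 5, 0.21 without KO 1, 0.70 without KO 4 and 0.078 with the replicate block. The 18 target genes, such as Bcl2 and Myc, had a median of 0.018 with 0 called, and Lta, a cytokine gene of lymphocytes, had the smallest p at a log2 difference of -0.13, which was -0.019 without WT 4, -0.068 without KO 5 and -0.24 without KO 1. Against these, the median over all 14944 genes was 0.014.

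Genes with a like profile over the 6 libraries were sought for Il2ra, Il2rg and Jak3, by the root mean square difference between log2 values after each gene was centred on its own mean. For Il2ra the nearest were Ppp3cb (0.037), Eps15l1 (0.051) and G6pc3 (0.051), where the median gene stood at 0.252. Ppp3cb, a catalytic subunit of calcineurin, measured 80.7, 68.1 and 93.2 FPM in KO 1, KO 4 and KO 5, against 79.5, 90.1 and 94.8 FPM in WT 1, WT 2 and WT 4, with its lowest value in KO 4 as for Il2ra. Nearest to Il2rg were Trmt61b (0.017), Dapl1 (0.020) and Dynlrb1 (0.023), against a median of 0.221 over all genes, and each of the 3 was lowest in KO 5. For Jak3 they were Abi3 (0.047), Il18bp (0.059) and D630039A03Rik (0.062), against a median of 0.303, each lowest in WT 1. These are the smallest distances among all genes tested over 6 libraries, and they describe only the shape of the values.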

How the data were processed

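Values are robust FPM deposited by the authors, a kind of RPM in which fragments per gene are scaled by robust size factors and rounded to 1 decimal. STAR, featureCounts, DESeq2, DESeq and the build GRCm38.p3 are named, without roles or versions, in the submitters' processing notes. Whether counting used strand is not stated there, and depth is unknown, so no counting intervals are given. Columns summed to 867137 to 961245. The 92 ERCC rows (0.752% to 1.59% of a column) were left out of tests. A further 6 columns, whose names hold act where those of the samples hold rest, fit no sample here and stayed out.

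Rows averaging at least 1 were kept and analysed as log2(value + 0.5), which understates the change of low genes. limma 3.58.1 in R 4.3.3 fitted library series and genotype with a mean-variance trend. The two-sided moderated tests were Benjamini-Hochberg adjusted over all 14944 genes and called below 0.05. The script was tested on simulated data. Lengths and coordinates are from GENCODE M21 (GRCm38), and figures were drawn with matplotlib 3.10.9. Symbols matched 54409 of 54532 gene rows. P-values measure the spread between samples. Named beside the 10 genes are Prmt5, Il2, any called pathway gene or the 1 of smallest p per list, and the 3 genes nearest in profile to Il2ra, Il2rg and Jak3. Genes and lists were chosen with earlier results of these data known. Alternatives changed the pseudocount (0.1, 1), filter (none, 5), scaling, trend, series term, replicate block, length and libraries. The summed level of 1 marker list is not reported here.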

Additional observations from a re-analysis of the deposited data

How the results depend on the processing

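Depth is unknown, and 3 libraries a group limit the precision. No call was made for any of the 10 genes under the alternatives run, in the comparison of genotypes, of series or of their interaction. Adjusted p-values (limma) were at least 0.650, 0.279 and 0.311 in those 3 comparisons. Of the 10 genes, Il2ra kept the sign of its genotype difference under all alternatives run, as did Prmt5, Il13ra1, Syk and Lta. With ERCC scaling the sign turned for Il2rb (-0.20), Il4ra (-0.10), Il21r (-0.17), Jak1 (-0.16), Jak2 (-0.19), Jak3 (-0.18), Tyk2 (-0.14) and Stat6 (-0.0079), with total-sum scaling for Il2rg (0.018), and without the series term for Il7r (0.020) and Dusp5 (-0.12). With the replicate block, which pairs the 2 numbers both groups share, it turned for Il2rg (0.11) and Jak2 (-0.0016). That block gave 1 higher and 4 lower calls over all genes, where the fit without it gave 0 and 0, and 1 of the 10 genes within 1.5-fold. Deviations from the group means had r of -0.16 between KO 1 and WT 1 and -0.41 between KO 4 and WT 4 across genes. With means of 3 libraries and 2 shared numbers, these values cannot decide whether the samples are paired. ERCC scaling left 0 of the 10 genes within 2-fold and 0 within 1.5-fold.

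Leaving out each library in turn, the log2 difference between genotypes ranged from -0.14 to 0.11 for Il2rg, -0.29 to 0.32 for Il2rb, -0.077 to 0.31 for Il4ra, -0.13 to 0.034 for Il7r, -0.024 to 0.12 for Il21r, -0.11 to 0.23 for Jak1, -0.15 to 0.20 for Jak2, -0.20 to 0.27 for Jak3, -0.083 to 0.25 for Tyk2, -0.14 to 0.59 for Dusp5, -0.39 to 0.77 for Il4, 0.22 to 0.89 for Il13ra1, 0.13 to 0.70 for Syk, 0.087 to 0.34 for Stat6 and -0.24 to -0.019 for Lta. For Il2ra the same difference ranged from -0.32 to -0.072. The number of the 10 genes within 1.5-fold ranged from 5 to 9, and within 2-fold from 9 to 10. The number whose KO values all lay above WT ranged from 0 to 5, and whose series 24 values all lay above series 22 from 3 to 5, or below it from 0 to 1.

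Between the series, calls over all genes ranged from 0 to 38 higher and from 0 to 92 lower without 1 library. The 38 were without KO 4 and the 92 without WT 1, and both counts were 0 without KO 1 or without WT 4. Higher calls numbered 2 at a pseudocount of 0.1, 6 at a mean of at least 5, 3 with ERCC scaling and 0 without a trend. Lower calls numbered 48 at a mean of at least 5, 10 with ERCC scaling and 0 without a trend. The series difference without 1 library ranged from -0.21 to 0.042 for Il2rg, -0.054 to 0.20 for Il2ra, -0.29 to 0.32 for Il2rb, -0.10 to 0.24 for Jak1 and -0.19 to 0.16 for Jak2, and for Jak2 it was 0.023 with total-sum and 0.042 with ERCC scaling. The interaction gave 4 higher and 4 lower calls with ERCC scaling, turned for Il7r there (-0.61), and ranged from -0.51 to 0.029 for Il2ra and -0.14 to 0.24 for Il7r without 1 library; without KO 1 or WT 4 it cannot be estimated. The causes of these shifts were not tested.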
